A study of Homo sapiens with 12 samples.

Results

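A set of 55 genes of the cell division cycle was followed in Hs 578T cells, a triple-negative breast cancer (TNBC) line, after withdrawal of cystine (Cyss), the oxidized dimer of cysteine that cells import. The members were picked by symbol and fall into 28 genes of DNA replication and the G1/S transition and 27 genes of G2 and mitosis, out of 55242 genes in the count tables. All 55 were found, and all 55 passed the minimum mean normalized count of 10. The line had been transduced with lentiviral vectors for green fluorescent protein (GFP) or for full-length NRF2, the transcription factor encoded by NFE2L2 that drives antioxidant genes. Each population was kept for 8 h in a medium made up without cystine, containing serum, methionine and glutamine, and the libraries with Cyss had 0.8 mM l-cystine added back. This gave 12 RNA-seq libraries in 4 groups of 3: GFP with Cyss, GFP without (w/o) Cyss, NRF2 with Cyss and NRF2 w/o Cyss. The exogenous NRF2 came on top of the cells' own gene. Nothing in the labels says that the 3 libraries of a group came from separate cultures, so the p-values measure the spread between these libraries, which may be technical.

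Between 27250993 and 44596870 reads lay on genes per library, and the members held between 235 and 48006 reads each, so counting error was small. The G1/S members took 0.281% to 0.289% of gene reads in GFP with Cyss and 0.234% to 0.236% in NRF2 w/o Cyss, and the G2/M members 0.792% to 0.816% and 0.686% to 0.709%. Per kilobase of exon, the mean level in GFP with Cyss ran from 85.3 normalized counts (E2F2) to 3520 (PCNA) among the G1/S members and from 261 (CDC25C) to 6120 (ANLN) among the G2/M members. As a check of the labels, NFE2L2 stood at 3647 to 4655 normalized counts in the GFP libraries and at 6598 to 8396 in the NRF2 libraries. The labels call the line epithelial, but CDH1, EPCAM, CLDN3, CLDN7 and OCLN never passed 14 normalized counts, while the epithelial keratins KRT8 and KRT18 stood at 151 to 233 and 773 to 1473 and VIM, a mesenchymal intermediate filament, never fell below 142637. The leukocyte and endothelial markers CD3E, LYZ and VWF stayed at 5 or below, and PTPRC, which marks leukocytes, stood at 19 to 53. NRF2 w/o Cyss replicate 1 had the highest share of reads outside annotated genes, 7.84%, against 5.82% to 6.69% in the other libraries, and results that depend on it are named. For 2 libraries of a group, a larger chi-square per degree of freedom means counts further apart. It was 13.1 for NRF2 w/o Cyss replicates 1 and 3, and 2.22 to 7.25 for all other pairs within groups.

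Cells commit to division late in G1, when E2F transcription factors, released from RB proteins by cyclin-dependent kinases, switch on the enzymes of DNA replication. The replicative helicase is loaded on origins by CDC6 and CDT1 and activated with CDC45 and the GINS complex, after which polymerases held by the PCNA clamp copy the DNA. Genes of G2 and mitosis come on later, through B-MYB, FOXM1 and the MuvB complex, which binds a promoter element called CHR, and through NF-Y, which binds CCAAT boxes. The G2/M products enter and carry out mitosis, among them cyclin B with CDK1, the spindle motors and the kinetochore proteins.

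Promoter windows from RefSeq (GRCh38.p14, 250 bases before to 50 after the start of each gene) were matched for 25 of the 28 G1/S members and 21 of the 27 G2/M members. An E2F motif was scored as TTCGCGC on either strand, with TTGGCGC accepted, TTCCCGC accepted and TTGCCGC accepted in its place. It was found in 20 of the 25 G1/S windows (80%) and 5 of the 21 G2/M windows (23.8%), against 13% of all 35116 windows. A CHR element, written TTTGAA or else TTCGAA on either strand, was found in 2 G1/S windows (8%) and 15 G2/M windows (71.4%), against 16.4% of all. CCAAT on either strand was found in 15 G1/S windows (60%) and 17 G2/M windows (81%), against 34.6% of all. An inverted CCAAT can share bases with TTGGCGC. The median GC content was 67.7% in the G1/S windows, 61.7% in the G2/M windows and 58.7% in all windows. These matches describe the letters of the windows and are not evidence of binding.

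The 250 bases before the start of 6 members are shown because these genes carry the results that follow: PCNA, MCM10 and E2F2 among the genes lower w/o Cyss, and CCNB2, NUSAP1 and KIF20A among the mitotic genes lower in NRF2 cells. Capitals mark the 3 motifs above, and each stretch is written 5′ to 3′ on the strand of the gene.
PCNA (chr20:5126623-5126872, minus strand): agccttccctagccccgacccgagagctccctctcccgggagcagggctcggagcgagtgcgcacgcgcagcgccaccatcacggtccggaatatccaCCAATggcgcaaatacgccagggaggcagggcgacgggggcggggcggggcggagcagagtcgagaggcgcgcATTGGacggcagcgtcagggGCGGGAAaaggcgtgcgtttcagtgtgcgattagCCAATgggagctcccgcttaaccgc
MCM10 (chr10:13161308-13161557, plus strand): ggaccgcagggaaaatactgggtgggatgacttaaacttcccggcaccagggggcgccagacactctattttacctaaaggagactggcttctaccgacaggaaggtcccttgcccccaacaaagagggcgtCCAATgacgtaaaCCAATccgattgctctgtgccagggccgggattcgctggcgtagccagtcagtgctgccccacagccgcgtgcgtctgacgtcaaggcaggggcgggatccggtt
E2F2 (chr1:23531234-23531483, minus strand): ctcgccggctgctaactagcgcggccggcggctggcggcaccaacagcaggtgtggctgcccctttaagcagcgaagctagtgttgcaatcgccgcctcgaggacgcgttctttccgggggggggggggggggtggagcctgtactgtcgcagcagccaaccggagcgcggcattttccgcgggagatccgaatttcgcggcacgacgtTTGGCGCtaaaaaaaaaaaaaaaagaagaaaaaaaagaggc
CCNB2 (chr15:59104896-59105145, plus strand): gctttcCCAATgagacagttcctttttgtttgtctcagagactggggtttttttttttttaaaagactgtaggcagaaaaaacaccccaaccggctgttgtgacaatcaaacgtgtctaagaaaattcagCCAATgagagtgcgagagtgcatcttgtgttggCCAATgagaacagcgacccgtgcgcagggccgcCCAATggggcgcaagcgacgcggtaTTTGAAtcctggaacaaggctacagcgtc
NUSAP1 (chr15:41332631-41332880, plus strand): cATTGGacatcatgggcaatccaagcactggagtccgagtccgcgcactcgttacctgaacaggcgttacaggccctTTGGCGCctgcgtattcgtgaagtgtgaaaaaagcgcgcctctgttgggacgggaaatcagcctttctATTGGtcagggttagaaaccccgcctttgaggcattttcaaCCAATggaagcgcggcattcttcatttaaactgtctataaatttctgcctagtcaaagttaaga
KIF20A (chr5:138178862-138179111, plus strand): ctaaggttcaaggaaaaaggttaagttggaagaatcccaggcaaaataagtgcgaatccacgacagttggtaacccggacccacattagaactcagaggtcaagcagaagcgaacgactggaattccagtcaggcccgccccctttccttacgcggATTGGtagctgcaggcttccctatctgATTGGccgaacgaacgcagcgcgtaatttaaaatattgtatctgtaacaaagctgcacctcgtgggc
PCNA held 1 E2F motif and 3 CCAAT boxes in this stretch, E2F2 held 1 E2F motif and MCM10 held 2 CCAAT boxes. CCNB2 held 4 CCAAT boxes and 1 CHR element, NUSAP1 held 3 CCAAT boxes and 1 E2F motif, and KIF20A held 2 CCAAT boxes. For NUSAP1 a CHR element lay after the start, at bases 14 to 19, outside the stretch shown.

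In GFP cells, the question was how the division genes stood after 8 h w/o Cyss. The replication genes were a little lower and the mitotic genes nearly level. Each library's median over the 28 G1/S members, set against the GFP with Cyss mean, was 92.6%, 92.8% and 88.2% in the 3 GFP libraries w/o Cyss, and 98.6%, 100% and 99.7% in the 3 with Cyss. For the 27 G2/M members the medians were 101%, 97.7% and 97.3% w/o Cyss and 98.5%, 99.9% and 101% with Cyss, so the groups overlapped. Bulk libraries cannot tell fewer cells in a phase from less RNA of these genes per cell.

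A gene was called at an adjusted p under 0.1 (edgeR's quasi-likelihood test, Benjamini-Hochberg over all genes tested) and a log2FC of more than 0.32 in size. By this rule 1 of 28 G1/S members was lower and none higher, and no G2/M member was called by edgeR or DESeq2, against 0.533% of all genes called lower and 1.57% called higher. At any fold, 10 G1/S members were lower and none higher, against 2.81% of all genes lower, while 1 G2/M member (BUB1B) was lower and 2 (CENPF and UBE2C) were higher, against 3.11% of all genes higher. At an unadjusted p under 0.05, 4 G2/M members were lower and 4 higher, against 18.1% of all genes in either direction. The median log2FC was −0.13 for G1/S and −0.02 for G2/M, against 0.002 for all 17452 genes tested. In 19 of 28 G1/S members all 3 libraries w/o Cyss lay below all 3 with Cyss, which 12.1% of all genes did.

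The member called was MCM10, a factor needed to activate the loaded helicase (GRCh37 chromosome 10, 13203558 to 13253110, plus strand). In GFP cells it gave 1485, 1439 and 1450 normalized counts with Cyss and 1212, 1145 and 1108 w/o Cyss. In NRF2 cells it gave 1315, 1318 and 1428 with Cyss and 1102, 988 and 958 w/o Cyss. The groups did not overlap in either population. MCM10 fell by 0.34 on the log2 scale in GFP cells (SE 0.0486, adjusted p = 0.00139 by edgeR) and by 0.42 in NRF2 cells (SE 0.0632, adjusted p = 0.000236 by edgeR). Without GFP w/o Cyss replicate 3, no G1/S member was called in GFP cells, and without GFP with Cyss replicate 2 there were 2, MCM10 and GINS1.

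In NRF2 cells, Cyss withdrawal was followed by lower levels of more replication genes. In all, 11 G1/S members (MCM3, MCM10, GINS1, GINS2, PCNA, POLE2, RFC3, CCNE1, CCNE2, E2F2 and CHAF1B) were called lower and none higher. That is 11 of 28, against 5.14% of all genes called lower and 6.81% called higher. Only 1 G2/M member, CENPF, was called higher and none lower. At any fold, 23 G1/S members were lower and 1 (RRM2) was higher, and 9 G2/M members were lower and 2 (CENPE and CENPF) higher, against 13.8% of all genes lower and 15.2% higher. The median log2FC was −0.29 for G1/S, −0.06 for G2/M and −0.012 for all 17266 genes tested. In 24 of 28 G1/S and 12 of 27 G2/M members the libraries w/o Cyss all lay below those with Cyss, as in 18.5% of all genes. Over the G1/S members, the library medians were 97.8%, 96.7% and 98.1% of the GFP with Cyss mean in NRF2 libraries with Cyss and 81%, 82% and 79.9% w/o Cyss.

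**Figure D1:**
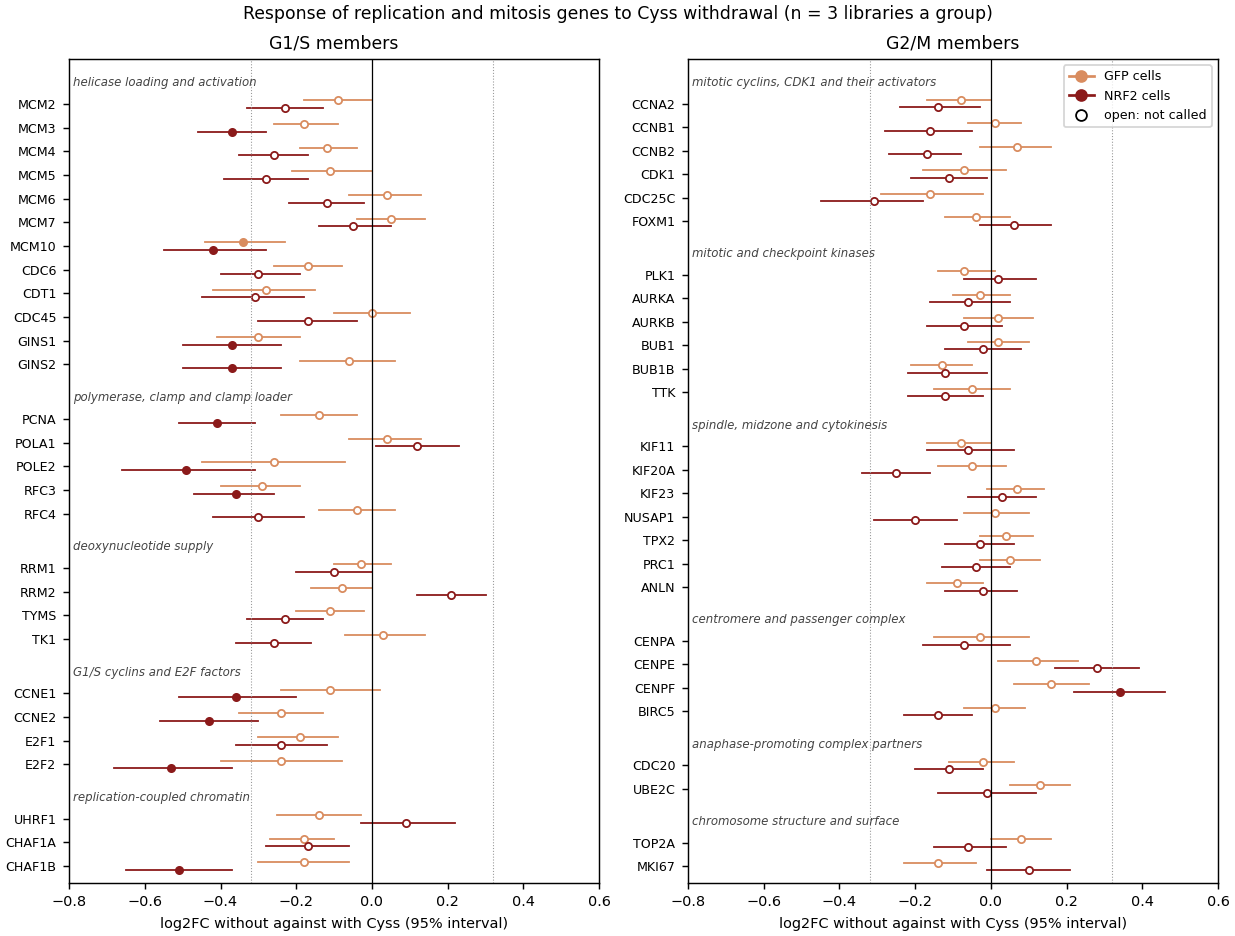
The log2FC of each of the 55 members without against with Cyss (x axis) with its 95% interval, in GFP cells (orange) and NRF2 cells (dark red), by role. Filled points were called, dotted lines mark 0.32 in either direction, and most G1/S points lie left of 0 with the NRF2 point further left, while the G2/M points lie around 0.

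Of the 12 helicase genes, 4 were called lower in NRF2 cells and 11 were lower at any fold, against 5.14% and 13.8% of all genes. Their median log2FC was −0.29, against −0.11 in GFP cells. MCM3, a subunit of the MCM2 to MCM7 helicase ring (GRCh37 chromosome 6, 52128812 to 52149679, minus strand), gave 7301, 7766 and 7572 with Cyss and 6917, 6787 and 6359 w/o Cyss in GFP cells. In NRF2 cells MCM3 gave 7399, 7377 and 7612 with Cyss and 5743, 5927 and 5675 w/o Cyss. MCM3 fell by 0.37 there (SE 0.0429, adjusted p = 1.8e-05 by edgeR), and its groups did not overlap in either population. Its log2FC in GFP cells was −0.18.

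MCM4, of the same ring, gave 13876, 14436 and 14144 with Cyss and 13311, 13162 and 12714 w/o Cyss in GFP cells, and 14193, 14071 and 13665 with and 11932, 11627 and 11524 w/o Cyss in NRF2 cells. The lowest library with Cyss lay above the highest w/o Cyss in each population, and the log2FC of −0.26 in NRF2 cells did not reach the fold required for a call. GINS2, a subunit of the GINS complex that travels with the helicase, gave 1293, 1341 and 1351 with Cyss and 1300, 1352 and 1163 w/o Cyss in GFP cells, so those groups overlapped. In NRF2 cells GINS2 gave 1197, 1310 and 1306 with Cyss and 967, 1052 and 938 w/o Cyss, a log2FC of −0.37 (SE 0.0609, adjusted p = 0.000488 by edgeR). MCM7, the ring member nearest to no change in NRF2 cells, had a log2FC of −0.05 in NRF2 cells (SE 0.0464) and 0.05 in GFP cells (SE 0.0412), with overlapping groups.

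GINS1, another GINS subunit, was called lower in NRF2 cells, at −0.37, and its log2FC in GFP cells was −0.30 (SE 0.0515, adjusted p = 0.00525 by edgeR), just short of the fold required. The NRF2 call was lost without NRF2 w/o Cyss replicate 3. The loaders CDC6 and CDT1 had log2FC of −0.30 and −0.31 in NRF2 cells and −0.17 and −0.28 in GFP cells, all past the adjusted p and none past the fold. Of the remaining helicase genes, MCM2, MCM5, MCM6 and CDC45 had log2FC of −0.23, −0.28, −0.12 and −0.17 in NRF2 cells and −0.09, −0.11, 0.04 and 0.00 in GFP cells.

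Among the 5 genes of polymerases, clamp and clamp loader, PCNA, POLE2 and RFC3 were called lower in NRF2 cells, against 5.14% of all genes. POLA1, the catalytic subunit of the priming polymerase, had a log2FC of 0.12 there and did not pass. PCNA, the sliding clamp (GRCh37 chromosome 20, 5095599 to 5107272, minus strand), was the most abundant G1/S member per kilobase. In GFP cells it gave 5163, 4947 and 4687 with Cyss and 4487, 4627 and 4288 w/o Cyss. In NRF2 cells it gave 4868, 5065 and 4944 with Cyss and 3571, 3928 and 3712 w/o Cyss. The NRF2 libraries w/o Cyss were the lowest of all 12, and PCNA fell by 0.41 in NRF2 cells (SE 0.0475, adjusted p = 1.8e-05 by edgeR).

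POLE2, a subunit of the leading-strand polymerase, was the least counted of these, at 332, 337 and 404 with Cyss and 316, 285 and 293 w/o Cyss in GFP cells. In NRF2 cells it gave 377, 342 and 354 with Cyss and 250, 276 and 240 w/o Cyss, and it fell by 0.49 (SE 0.0836, adjusted p = 7e-04 by edgeR). RFC4, a subunit of the loader that opens PCNA, gave 2297, 2366 and 2561 with Cyss and 2377, 2396 and 2274 w/o Cyss in GFP cells, where the groups overlapped. In NRF2 cells RFC4 gave 2090, 2219 and 2356 with Cyss and 1718, 1853 and 1845 w/o Cyss, a log2FC of −0.30 that missed the fold required. RFC3, of the same loader, fell by 0.36 in NRF2 cells, and its log2FC in GFP cells was −0.29, past the adjusted p but not the fold.

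The 4 genes of deoxynucleotide supply did not move together. RRM2, the small subunit of ribonucleotide reductase, which makes deoxynucleotides, gave 10620, 10207 and 10449 with Cyss and 9549, 9850 and 10201 w/o Cyss in GFP cells. In NRF2 cells RRM2 gave 9747, 9545 and 9392 with Cyss and 10747, 11196 and 11225 w/o Cyss. All 3 NRF2 libraries w/o Cyss thus lay above the other 9, with a log2FC of 0.21 in NRF2 cells (SE 0.0426, adjusted p = 0.00269 by edgeR, below the fold required) and −0.08 in GFP cells.

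TK1, the thymidine kinase of S phase, gave 3926, 4205 and 3791 with Cyss and 3998, 4302 and 3911 w/o Cyss in GFP cells. In NRF2 cells TK1 gave 4295, 4121 and 4345 with Cyss and 3472, 3512 and 3705 w/o Cyss. Its GFP groups overlapped and its NRF2 groups did not. The log2FC of TK1 was −0.26 in NRF2 cells and 0.03 in GFP cells. TYMS, thymidylate synthase, had a log2FC of −0.23 in NRF2 cells, and 39.9% of its exon bases overlap ENOSF1 on the other strand. The kit does not mark strand and reads were counted without regard to it, so reads in the shared bases may be left uncounted. RRM1, the large subunit of ribonucleotide reductase, had a log2FC of −0.10 in NRF2 cells and −0.03 in GFP cells.

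All 4 G1/S cyclins and E2F factors had groups that did not overlap, lower w/o Cyss, in both populations. Of all genes, 12.1% did so in GFP cells and 18.5% in NRF2 cells. CCNE1, CCNE2 and E2F2 were called lower in NRF2 cells, against 5.14% of all genes. CCNE1 and CCNE2 encode the cyclin E proteins that drive entry into S phase with CDK2. CCNE1 gave 481, 492 and 490 with Cyss and 469, 452 and 434 w/o Cyss in GFP cells, and 480, 498 and 518 with and 364, 409 and 395 w/o Cyss in NRF2 cells. CCNE2 gave 962, 942 and 942 with and 806, 833 and 770 w/o Cyss in GFP cells, and 909, 971 and 890 with and 704, 686 and 672 w/o Cyss in NRF2 cells. In NRF2 cells CCNE1 fell by 0.36 (adjusted p = 0.00234) and CCNE2 by 0.43 (adjusted p = 0.000114), both by edgeR. Of the CCNE2 exon bases, 37% overlap INTS8 on the other strand. The CCNE1 call was lost without NRF2 w/o Cyss replicate 1.

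E2F2, an activator E2F (GRCh37 chromosome 1, 23832930 to 23857725, minus strand), had the largest fall among the G1/S members called in NRF2 cells. It gave 477, 465 and 455 with Cyss and 434, 393 and 356 w/o Cyss in GFP cells. In NRF2 cells E2F2 gave 503, 484 and 471 with Cyss and 355, 320 and 339 w/o Cyss. It fell by 0.53 in NRF2 cells (SE 0.073, adjusted p = 0.000103 by edgeR), and its log2FC in GFP cells was −0.24 (SE 0.0743, adjusted p = 0.108 by edgeR). E2F1, the other activator E2F among the members, had a log2FC of −0.24 in NRF2 cells and −0.19 in GFP cells.

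The 3 genes that work on chromatin at the replication fork split. CHAF1B, a subunit of the CAF-1 histone chaperone (GRCh37 chromosome 21, 37757690 to 37791313, plus strand), gave 790, 776 and 779 with Cyss and 729, 693 and 652 w/o Cyss in GFP cells. In NRF2 cells CHAF1B gave 773, 735 and 697 with Cyss and 503, 516 and 532 w/o Cyss, and it fell by 0.51 (SE 0.065, adjusted p = 4.79e-05 by edgeR). Its partner CHAF1A had a log2FC of −0.17 in NRF2 cells and −0.18 in GFP cells, neither called.

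UHRF1, which brings the maintenance DNA methyltransferase to newly copied DNA, gave 2116, 2065 and 1964 with Cyss and 1759, 1888 and 1934 w/o Cyss in GFP cells, and 2071, 2002 and 1911 with and 2301, 2046 and 2046 w/o Cyss in NRF2 cells. Its log2FC was 0.09 in NRF2 cells against −0.14 in GFP cells, neither past the test. The highest value, 2301, was that of NRF2 w/o Cyss replicate 1.

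**Figure D2:**
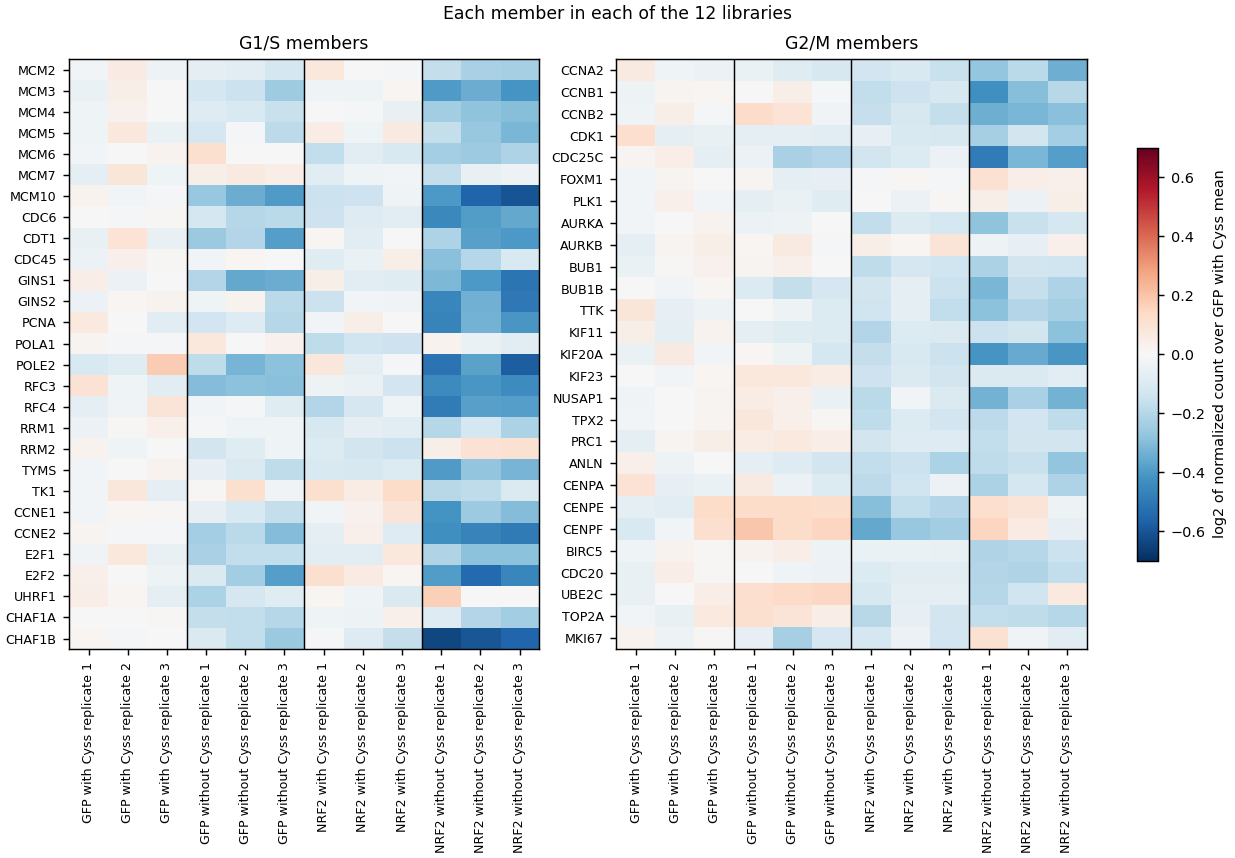
Each member (rows) in each of the 12 libraries (columns), coloured by the log2 ratio of its normalized count to its mean in GFP with Cyss (blue lower, red higher). The G1/S panel is bluest in the 3 NRF2 libraries w/o Cyss, and the G2/M panel is pale blue in all 6 NRF2 libraries except for rows such as FOXM1, PLK1 and AURKB, and CENPE, CENPF and MKI67 w/o Cyss.

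The mitotic genes showed small and mixed changes w/o Cyss. CENPF and CENPE, large proteins of the outer kinetochore, were the members higher w/o Cyss in NRF2 cells, with log2FC of 0.34 (SE 0.0544, adjusted p = 0.00039 by edgeR) and 0.28 (SE 0.0518, adjusted p = 0.00116 by edgeR, below the fold required). CENPF (GRCh37 chromosome 1, 214776528 to 214837917, plus strand) gave 23424, 24884 and 27225 with Cyss and 28795, 27500 and 27943 w/o Cyss in GFP cells. In NRF2 cells it gave 19621, 20930 and 21289 with Cyss and 27933, 26186 and 24191 w/o Cyss. The groups did not overlap in either population, and the lowest CENPF values were those of NRF2 cells with Cyss. The log2FC of CENPF in GFP cells was 0.16 (adjusted p = 0.0947 by edgeR, below the fold required). CENPF was not called for the difference between the populations, so its rise was not shown to differ between them. When libraries were scaled by total reads alone, CENPF was not called and CDC25C was called lower. The CENPF call was also lost without NRF2 with Cyss replicate 1 or NRF2 w/o Cyss replicate 1.

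Among the 6 mitotic cyclins and activators, none was called for Cyss withdrawal. In NRF2 cells 5 of 6 had lower, non-overlapping groups, as did 18.5% of all genes. CDC25C, the phosphatase that activates CDK1, had the lowest log2FC of the G2/M members in NRF2 cells, −0.31 (SE 0.063, adjusted p = 0.00238 by edgeR), just short of the fold required. FOXM1, a transcription factor of the mitotic genes, had a log2FC of 0.06 there, CCNA2, which encodes cyclin A of S phase and G2, one of −0.14, and CDK1 one of −0.11.

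None of the 6 mitotic and checkpoint kinases was called in any comparison by edgeR or DESeq2, and in NRF2 cells 2 of them were lower w/o Cyss at an unadjusted p under 0.05, which 34.1% of all genes passed in either direction. AURKA, the centrosomal Aurora kinase and the most counted of them, gave 6510, 6601 and 6708 with Cyss and 6430, 6450 and 6610 w/o Cyss in GFP cells, and 5861, 6184 and 6056 with and 5427, 5920 and 6064 w/o Cyss in NRF2 cells. Groups with and w/o Cyss overlapped in both populations. PLK1 and BUB1, kinases of mitotic entry and of the spindle checkpoint, had log2FC of 0.02 and −0.02 in NRF2 cells. BUB1B, which encodes the checkpoint protein BUBR1, had the same direction in both, at −0.12 in NRF2 cells against −0.13 in GFP cells, and passed the adjusted p only in the latter (0.0855 by edgeR). TTK, a kinase of the same checkpoint, had a log2FC of −0.12 in NRF2 cells, and AURKB, the Aurora kinase of the passenger complex, one of −0.07.

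Neither anaphase-promoting complex partner was called by edgeR or DESeq2. In NRF2 cells 1 of the 2 was lower w/o Cyss at an unadjusted p under 0.05, against 34.1% of all genes in either direction. CDC20, which directs that ubiquitin ligase to its mitotic targets, gave 6647, 7118 and 6939 with Cyss and 6905, 6746 and 6718 w/o Cyss in GFP cells. In NRF2 cells CDC20 gave 6456, 6542 and 6529 with Cyss and 5980, 5972 and 6134 w/o Cyss, and the groups overlapped only in GFP cells. UBE2C, the ubiquitin-conjugating enzyme of the complex, had a log2FC of 0.13 in GFP cells (adjusted p = 0.0878 by edgeR) and −0.01 in NRF2 cells.

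Of the 7 genes of spindle, midzone and cytokinesis, none was called for Cyss withdrawal by edgeR or DESeq2. The most negative log2FC in NRF2 cells were those of KIF20A, −0.25 (adjusted p = 0.000654 by edgeR), and NUSAP1, −0.20 (adjusted p = 0.0137 by edgeR), both below the fold required, against −0.05 and 0.01 in GFP cells. The spindle kinesin KIF11 and the midzone kinesin KIF23 had log2FC of −0.08 and 0.07 in GFP cells and −0.06 and 0.03 in NRF2 cells. TPX2, which activates AURKA on the spindle, PRC1, which bundles midzone microtubules, and ANLN, a scaffold of the contractile ring, had log2FC of 0.04, 0.05 and −0.09 in GFP cells and −0.03, −0.04 and −0.02 in NRF2 cells. Most of the PRC1 exon bases, 57.6%, are also covered by a same-strand model without a symbol. CENPA, the centromeric histone, and TOP2A, the topoisomerase of mitotic chromosomes, had log2FC of −0.07 and −0.06 in NRF2 cells.

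**Figure D3:**
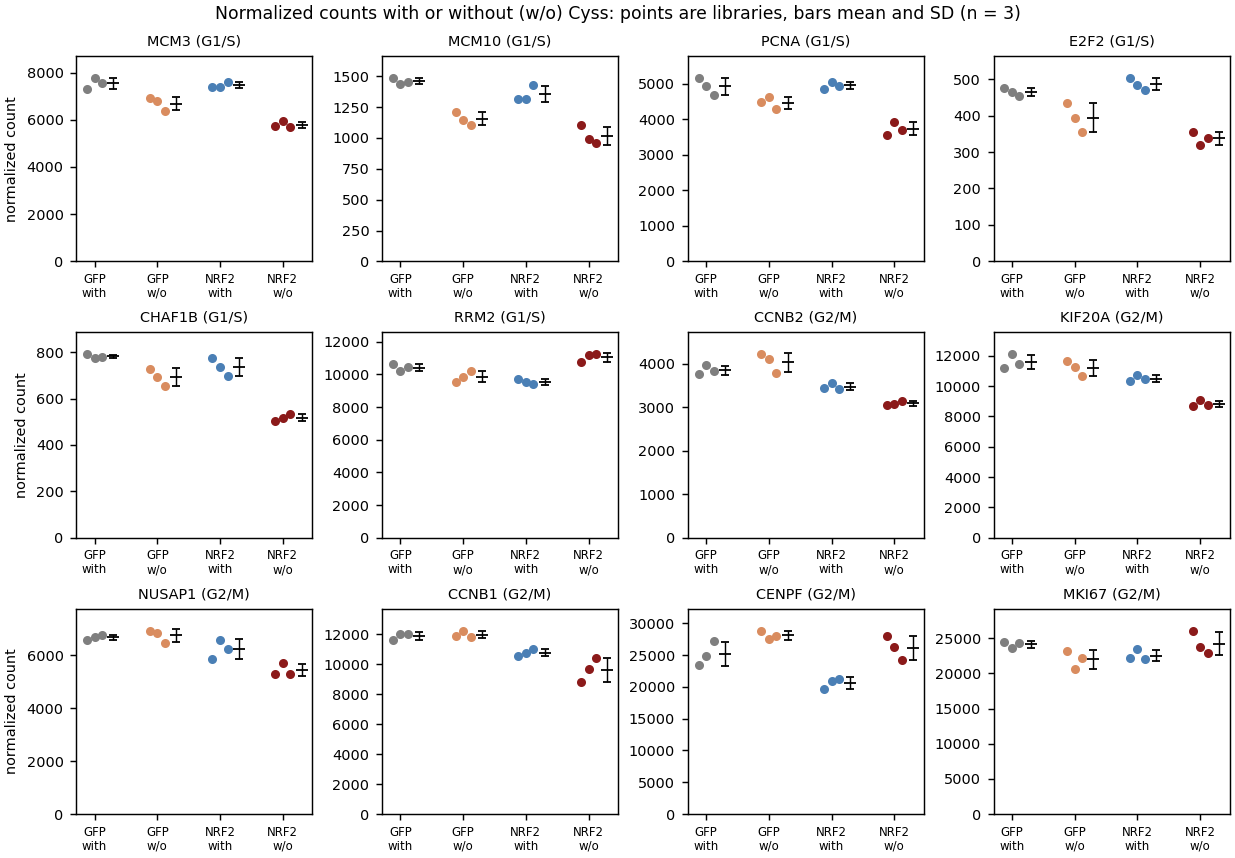
Normalized counts (y axis, from 0) of 12 members in the 4 groups, with a point for each library and the mean and SD at its right. MCM3, MCM10, PCNA, E2F2 and CHAF1B are lowest in NRF2 cells w/o Cyss, RRM2 is highest there, and CCNB1, CCNB2, KIF20A and NUSAP1 have means that step down from the GFP groups to NRF2 with and then w/o Cyss.

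The next comparison asked how NRF2 cells stood against GFP cells in medium with Cyss. No member was called by edgeR or DESeq2, against 1.36% of all genes called higher and 0.201% called lower. The mitotic genes were nevertheless slightly lower: 14 of 27 were lower at any fold and none higher, against 2.28% of all genes lower and 4.15% higher, with a median log2FC of −0.13 against −0.004 for all 17449 genes tested. In 20 of 27 G2/M members all 3 NRF2 libraries lay below all 3 GFP libraries, which 12.1% of all genes did. Of the G1/S members 2 (POLA1 and RRM2) were lower at any fold, 8 had non-overlapping lower groups, and the median log2FC was −0.04. At an unadjusted p under 0.05, 20 G2/M members were lower and none higher, and 8 G1/S members were lower and 1 higher, against 19% of all genes in either direction. The largest difference was that of CENPF, −0.29 (SE 0.047, adjusted p = 0.00204 by edgeR, below the fold required). All 7 genes of spindle, midzone and cytokinesis had a log2FC below 0, from −0.18 to −0.10, and 5 of them passed at any fold.

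Without Cyss, 3 G1/S members (GINS2, RFC4 and CHAF1B) and 4 G2/M members (CCNB1, CCNB2, KIF20A and NUSAP1) were called lower in NRF2 than in GFP cells and none higher, against 4.09% of all genes called lower and 5.98% higher. At any fold, 21 G1/S and 19 G2/M members were lower, and 2 G1/S members (RRM2 and UHRF1) were higher, against 14.7% of all genes lower and 14% higher. The median log2FC was −0.20 for G1/S and −0.18 for G2/M, against −0.016 for all 17297 genes tested. The NRF2 libraries all lay below the GFP libraries in 20 G1/S and 21 G2/M members, as in 18.9% of all genes. This comparison shares its libraries with both Cyss comparisons, so its values are not independent of theirs. The largest G1/S differences were −0.43 for CHAF1B (SE 0.0651, adjusted p = 0.00116 by edgeR), −0.39 for RFC4 (SE 0.0501, adjusted p = 0.000483 by edgeR) and −0.38 for GINS2 (SE 0.068, adjusted p = 0.00293 by edgeR).

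CCNB1 and CCNB2 encode the B-type cyclins that activate CDK1 at mitotic entry. CCNB2 (GRCh37 chromosome 15, 59397325 to 59417244, plus strand) gave 3760, 3959 and 3819 with and 4210, 4103 and 3782 w/o Cyss in GFP cells, and 3435, 3561 and 3424 with and 3040, 3082 and 3145 w/o Cyss in NRF2 cells. All 6 NRF2 libraries thus lay below all 6 GFP libraries, and w/o Cyss the log2FC was −0.40 (SE 0.0504, adjusted p = 0.00047 by edgeR). CCNB1 gave 11615, 12055 and 11996 with and 11901, 12235 and 11814 w/o Cyss in GFP cells, and 10566, 10774 and 11021 with and 8814, 9679 and 10404 w/o Cyss in NRF2 cells. Its log2FC w/o Cyss was −0.33 (SE 0.0568, adjusted p = 0.00243 by edgeR), just past the fold required.

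KIF20A, a kinesin of the central spindle needed for cytokinesis (GRCh37 chromosome 5, 137514408 to 137523412, plus strand), gave 11214, 12087 and 11432 with and 11669, 11287 and 10649 w/o Cyss in GFP cells. In NRF2 cells KIF20A gave 10321, 10736 and 10439 with and 8705, 9083 and 8728 w/o Cyss. NRF2 cells w/o Cyss were lowest and did not overlap with any other group, and against GFP w/o Cyss the log2FC was −0.35 (SE 0.0474, adjusted p = 0.000591 by edgeR).

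NUSAP1, a microtubule-binding protein of the spindle (GRCh37 chromosome 15, 41612992 to 41673248, plus strand), gave 6575, 6686 and 6776 with and 6929, 6855 and 6477 w/o Cyss in GFP cells, and 5854, 6601 and 6233 with and 5309, 5702 and 5309 w/o Cyss in NRF2 cells. Against GFP w/o Cyss its log2FC was −0.33 (SE 0.0488, adjusted p = 0.00114 by edgeR). A same-strand protein-coding model without a symbol (GENCODE 44) covers 81.4% of its exon bases, so how its reads were assigned is uncertain. With the size factors of DESeq2, with the Wald test of DESeq2 or with all 12 libraries in the fit, CCNB1 and NUSAP1 were no longer called and CCNB2 and KIF20A remained. Leaving out GFP w/o Cyss replicate 2 or NRF2 w/o Cyss replicate 1 ended both calls, and leaving out GFP w/o Cyss replicate 1 or NRF2 w/o Cyss replicate 3 ended that of NUSAP1.

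**Figure D4:**
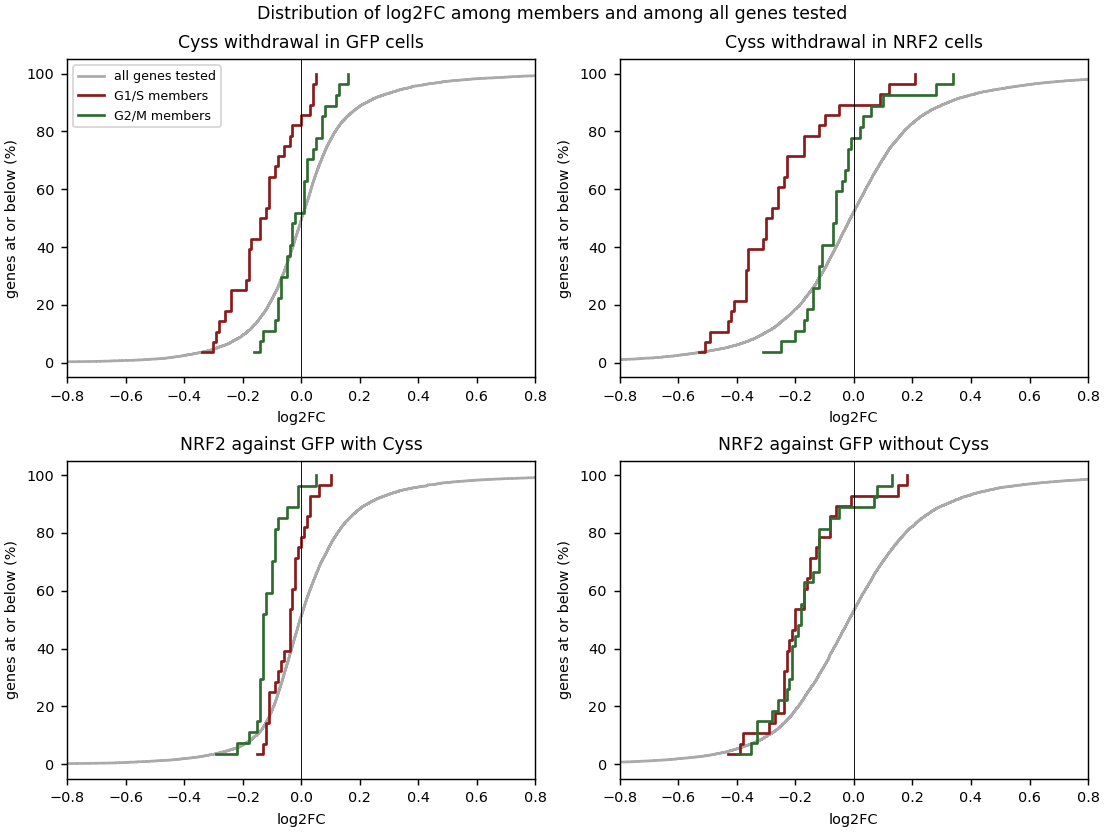
Cumulative share of genes (y axis, %) at or below each log2FC (x axis, shown from −0.8 to 0.8) for the G1/S members (dark red), the G2/M members (green) and all genes tested (grey) in the 4 pairwise comparisons. The G1/S curve lies left of the grey one for Cyss withdrawal, most in NRF2 cells, and the G2/M curve lies left of it for NRF2 against GFP in both media.

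Whether the response to Cyss withdrawal differed between the populations was tested by an interaction term over all 12 libraries (adjusted p under 0.1, no fold required), whose value is the NRF2 response minus the GFP response on the log2 scale. Among the G1/S members 9 had a more negative response in NRF2 cells and 2 a more positive one, and among the G2/M members 4 and 1, against 6.13% of all genes called lower and 8.97% called higher. With libraries scaled by total reads alone the counts became 16 and 1 for G1/S and 7 and 1 for G2/M. The median difference was −0.14 for G1/S, −0.05 for G2/M and −0.013 for all 17674 genes tested.

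The 9 replication genes with the more negative response were CHAF1B, GINS2, E2F2, TK1, PCNA, RFC4, CCNE1, MCM3 and MCM4. CHAF1B differed by −0.33 (SE 0.0822, adjusted p = 0.0181 by edgeR), GINS2 by −0.31 (SE 0.0853, adjusted p = 0.0322 by edgeR) and TK1 by −0.29 (SE 0.0683, adjusted p = 0.0134 by edgeR). The PCNA difference was −0.27 (SE 0.066, adjusted p = 0.018 by edgeR). The calls of PCNA, TK1 and CHAF1B held when any 1 library was left out, whereas those of MCM4 and E2F2 held in 3, that of CCNE1 in 4 and that of MCM3 in 8 of 12 such fits. With no filter on low counts the differences of MCM4, CCNE1 and E2F2 were not called, nor were those of CCNE1 and E2F2 by the Wald test of DESeq2. That of GINS2 was lost without GFP w/o Cyss replicate 2 and that of RFC4 without NRF2 with Cyss replicate 3. MCM10, GINS1, POLE2, RFC3 and CCNE2, called lower in NRF2 cells, were not called for the difference, so their fall was not shown to differ between the populations.

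RRM2 differed by 0.29 (SE 0.0537, adjusted p = 0.00288 by edgeR) and UHRF1 by 0.23 (SE 0.0769, adjusted p = 0.0635 by edgeR), opposite in sign to the other 9. The RRM2 call held when any 1 library was left out, and that of UHRF1 in 6 of 12 such fits. UHRF1 was not called with scaling by total reads alone or without NRF2 w/o Cyss replicate 1.

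Of the mitotic genes, CCNB2 differed by −0.24 (SE 0.0622, adjusted p = 0.024 by edgeR), NUSAP1 by −0.21, KIF20A by −0.20 and BIRC5 by −0.15. BIRC5, the survivin subunit of the chromosomal passenger complex, gave 6322, 6560 and 6492 with and 6561, 6673 and 6307 w/o Cyss in GFP cells, and 6257, 6247 and 6229 with and 5583, 5630 and 5808 w/o Cyss in NRF2 cells. The KIF20A call was lost without GFP with Cyss replicate 1 or GFP w/o Cyss replicate 1, that of BIRC5 held in 3 and that of NUSAP1 in 7 of the 12 leave-one-out fits, and BIRC5 was not called with no filter on low counts.

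MKI67, which encodes the Ki-67 protein that coats mitotic chromosomes and marks dividing cells, differed by 0.24 (SE 0.0708, adjusted p = 0.042 by edgeR). It gave 24531, 23608 and 24343 with and 23234, 20587 and 22240 w/o Cyss in GFP cells. In NRF2 cells MKI67 gave 22172, 23450 and 22003 with and 26052, 23781 and 22885 w/o Cyss. The groups did not overlap in GFP cells, where MKI67 was lower w/o Cyss, and overlapped in NRF2 cells, and its log2FC was −0.14 in GFP and 0.10 in NRF2 cells, neither called. Without GFP w/o Cyss replicate 2 or NRF2 with Cyss replicate 3 the difference was not called.

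The 3 further lists gave the surroundings of these genes. Of 26 other genes of replication and S phase, 1 was called lower w/o Cyss in GFP cells (against 0.533% of all genes) and 3 in NRF2 cells (against 5.14%), and none was called higher. At any fold, 20 of the 26 were lower in NRF2 cells, against 13.8% of all genes. ORC1, the largest subunit of the origin recognition complex, gave 857, 943 and 930 with and 722, 719 and 629 w/o Cyss in GFP cells, and 902, 949 and 932 with and 594, 607 and 557 w/o Cyss in NRF2 cells. ORC1 fell by 0.40 in GFP cells and by 0.66 in NRF2 cells. GMNN, which encodes geminin, the inhibitor of CDT1, fell by 0.60 in NRF2 cells, from 2401, 2468 and 2383 to 1577, 1603 and 1602, and its log2FC in GFP cells was −0.26. Against GFP w/o Cyss, 2 of the 26 were called lower in NRF2 cells, against 4.09% of all genes. These were GMNN and PRIM1, a primase subunit, with log2FC of −0.38 and −0.37. The PRIM1 call was lost without GFP w/o Cyss replicate 1. For the difference between the populations, 5 of the 26 were called lower and none higher, against 6.13% and 8.97% of all genes. The Cyss response of GMNN differed between the populations by −0.34 (adjusted p = 0.00246 by edgeR) and that of POLD1, the catalytic subunit of the lagging-strand polymerase, by −0.28 (adjusted p = 0.0817 by edgeR), a call that held in 6 of the 12 leave-one-out fits.

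Of 32 other genes of G2 and mitosis, none was called for Cyss withdrawal in either population by edgeR or DESeq2, and at an unadjusted p under 0.05 2 were lower and 4 higher in GFP cells, against 18.1% of all genes in either direction. At an adjusted p under 0.1, 10 were lower and 2 higher at any fold in NRF2 cells, against 13.8% of all genes lower and 15.2% higher. Against GFP w/o Cyss, 2 of the 32 were called lower in NRF2 cells, against 4.09% of all genes. These were CKS2, a small subunit bound to CDK1, at −0.43, and PTTG1, which encodes securin, the inhibitor of separase, at −0.35. The PTTG1 call was lost without NRF2 w/o Cyss replicate 1. For the difference between the populations, 4 of the 32 were called lower and none higher, against 6.13% and 8.97% of all genes. These 4 were CKS2, PTTG1, CDCA3 and NEK2. The NEK2 call held in 3 of the 12 leave-one-out fits, and that of CDCA3 was lost without GFP w/o Cyss replicate 1. In medium with Cyss, 11 of the 32 were lower at any fold in NRF2 cells and none was higher, against 2.28% of all genes lower and 4.15% higher.

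Of 31 G1 regulators and brakes 29 were tested, and in NRF2 cells w/o Cyss 5 were called higher and 1 lower, against 6.81% and 5.14% of all genes. CDKN1A, which encodes the CDK inhibitor p21, gave 1226, 1270 and 1263 with and 1330, 1519 and 2301 w/o Cyss in GFP cells. In NRF2 cells CDKN1A gave 1286, 1297 and 1252 with and 2853, 3354 and 4226 w/o Cyss, a log2FC of 1.44 (SE 0.102, adjusted p = 1.28e-07 by edgeR). The log2FC of CDKN1A in GFP cells was 0.45 (adjusted p = 0.114 by edgeR), where replicate 3 stood above the others, and the difference between the populations was 0.99 (SE 0.207, adjusted p = 0.00615 by edgeR).

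E2F7, which encodes a repressor E2F, rose by 0.65 in NRF2 cells, from 4029, 4066 and 3732 to 6168, 6152 and 6231, and its log2FC in GFP cells was 0.24. The Cyss response was called more positive in NRF2 than in GFP cells for 8 of the 29 tested regulators and more negative for 1 (CDKN2C). Of all genes, 8.97% and 6.13% were so called. CCND1, which encodes cyclin D1, a driver of G1 progression and not a brake, differed by 0.67 between the populations. Its log2FC was 0.61 in NRF2 cells and −0.07 in GFP cells. CDK6, a partner of cyclin D1, differed by 0.68. CDKN2C, an inhibitor of CDK4 and CDK6, was the one called lower in NRF2 cells, at −0.54. In GFP cells w/o Cyss CDC25A, a phosphatase that activates CDK2, was the one called lower, at −0.38. None was called higher there, against 0.533% of all genes called lower and 1.57% called higher. Compared with GFP cells w/o Cyss, NRF2 cells w/o Cyss had 4 of the 29 called higher and 1 lower, against 5.98% and 4.09% of all genes. CDKN1A (log2FC 1.01), CCND1, CDK6 and E2F7 were the 4 higher. The E2F7 call was lost with scaling by total reads alone, or without GFP w/o Cyss replicate 1 or 2. The 1 lower was E2F8, which encodes another repressor E2F, at −0.35. Its call was lost without GFP w/o Cyss replicate 1, GFP w/o Cyss replicate 2 or NRF2 w/o Cyss replicate 3. These lists were read by counts and values and their part in the changes of the members was not tested.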

How the data were processed

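RNA of Hs 578T cells was sequenced as 12 TruSeq v2 mRNA libraries, 3 per group, with a kit that does not mark strand. Per the labels, reads were aligned to hg19 with TopHat2 2.1.0, which uses Bowtie, and counted with HTSeq 0.11.2; the annotation is not given in the sources used here. The deposited values are raw read counts per gene symbol, 1 table per library. The 5 HTSeq counters, 15.9% to 17.1% of a library, and 523 rRNA genes were left out, leaving 55242 genes. Groups came from the sample labels. Counts were tested with edgeR 4.0.16 (quasi-likelihood, TMM scaling, R 4.3.3) in pairs of groups (6 libraries) and for the interaction (12 libraries), over genes averaging 10 or more normalized counts in one of the groups compared, with p-values adjusted over all genes tested. The values printed per library are counts scaled by TMM over all 12 libraries. The procedure was tested on simulated data. DESeq2 1.42.0, other scalings, filters and thresholds, the replicate number as a block and leaving out each library were tried.

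The members, the further lists and the thresholds were chosen with earlier results of these data known. Values in every library are given for members called in the interaction, for the 4 in each module with the largest log2FC among those called in each comparison, and for the most counted member of each role with none called. Of the further lists, the called members with the largest log2FC are named, at least 2 in each direction where as many were called. The other members are given by log2FC. The promoters shown were chosen after the values were seen. Gene positions and exon overlaps are from GENCODE 44 on GRCh37.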

Additional observations from a re-analysis of the deposited data

Results flagged for a closer look

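The response to Cyss withdrawal differed between NRF2 and GFP cells for 16 of the 55 members (interaction term, edgeR, adjusted p under 0.1), with 9 G1/S and 4 G2/M members lower and 2 and 1 higher, against 6.13% of all genes called lower and 8.97% called higher. Each is given as the NRF2 minus the GFP log2FC. Among the replication genes the difference was −0.33 for CHAF1B, −0.31 for GINS2, −0.29 for TK1, −0.29 for E2F2, −0.27 for PCNA, −0.26 for RFC4, −0.25 for CCNE1, −0.19 for MCM3 and −0.14 for MCM4. It was 0.29 for RRM2 and 0.23 for UHRF1. Among the mitotic genes it was −0.24 for CCNB2, −0.21 for NUSAP1, −0.20 for KIF20A, −0.15 for BIRC5 and 0.24 for MKI67.

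Some of these calls were lost when any 1 of several libraries was left out. The difference of MCM3 was not called without GFP with Cyss replicate 1, GFP w/o Cyss replicate 1, GFP w/o Cyss replicate 2 or NRF2 with Cyss replicate 3. That of UHRF1 was not called without GFP with Cyss replicate 1, GFP w/o Cyss replicates 1 or 2, NRF2 with Cyss replicates 2 or 3, or NRF2 w/o Cyss replicate 1. That of NUSAP1 was not called without GFP with Cyss replicate 1, GFP w/o Cyss replicates 1 or 2, or NRF2 with Cyss replicates 2 or 3. MCM4 and BIRC5 were called in 3 of 12 such fits, both of them without GFP with Cyss replicate 2 and without GFP w/o Cyss replicate 3, and the third without NRF2 w/o Cyss replicate 1 for MCM4 and without NRF2 w/o Cyss replicate 3 for BIRC5. E2F2 was called only when GFP w/o Cyss replicate 3 or NRF2 w/o Cyss replicate 1 or 3 was left out, and CCNE1 only when GFP w/o Cyss replicate 3, NRF2 with Cyss replicate 1, or NRF2 w/o Cyss replicate 2 or 3 was. Groups of 3 libraries are too small for the check of single libraries that stand apart.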

How the results depend on the processing

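Of 172 recomputed member counts, leaving out libraries apart, 149 stayed within 1.5 times of the main count, including counts of 0 that stayed 0. Direction was scored only for the log2FC of single genes called in the main fit, and none reversed. Without a fold threshold, the counts were 10 G1/S lower, 2 G2/M higher and 1 G2/M lower for Cyss withdrawal in GFP cells; 1 G1/S higher, 23 G1/S lower, 2 G2/M higher and 9 G2/M lower in NRF2 cells; 2 G1/S lower and 14 G2/M lower for NRF2 against GFP with Cyss; and 2 G1/S higher, 21 G1/S lower and 19 G2/M lower w/o Cyss. Scaling by total reads alone gave 0 G2/M higher and 1 lower for Cyss withdrawal in NRF2 cells, and 1 G1/S higher, 16 G1/S lower and 7 G2/M lower for the interaction. The size factors of DESeq2, its Wald test and all 12 libraries in the fit each gave 2 G2/M lower for NRF2 against GFP w/o Cyss. For the interaction, no filter on low counts gave 2 G2/M higher, and an adjusted p under 0.05 gave 1 G1/S higher and 2 G2/M lower. The replicate block (numbers 1 to 3 as a term) gave 11 G1/S lower in NRF2 cells w/o Cyss, 4 G2/M lower for NRF2 against GFP w/o Cyss, and 9 G1/S and 5 G2/M lower for the interaction. Deviations of same-numbered libraries correlated between −0.0311 and 0.137, and not every library correlated best with its own number. This did not show pairing by number, and with 3 libraries a group it cannot exclude that libraries were prepared in numbered sets. Leaving out 1 library at a time gave 0 to 2 G1/S lower in GFP cells; 10 to 12 G1/S lower, 0 to 2 G2/M higher and 0 to 1 G2/M lower in NRF2 cells; 0 to 1 G2/M lower for NRF2 against GFP with Cyss; and 3 to 3 G1/S and 2 to 4 G2/M lower w/o Cyss. For the interaction it gave 1 to 2 G1/S higher, 4 to 11 G1/S lower, 0 to 3 G2/M higher and 1 to 6 G2/M lower. The lowest G1/S count, 4, came without GFP w/o Cyss replicate 2, the lowest G2/M count, 1, without GFP with Cyss replicate 1, and the highest G2/M counts, 3 higher and 6 lower, without NRF2 w/o Cyss replicate 3. The causes of these changes were not tested. With 3 libraries a group, folds just around the 0.32 required decide many calls.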
